A study of Homo sapiens with 2 samples.

Results

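The genes described here are 10 chemokines and cytokines that cells of the myeloid lineage are known to secrete: CCL2, CCL3, CCL4, CCL4L2, CXCL2, CXCL8, CXCL10, CXCL16, IL1B and TNF. They were taken by name from the 36601 genes of each matrix, and all 10 were present in both. They were chosen by their measured values in these same libraries, namely their levels, shares of cells, top cells and joint detection, so these values are a description and none was tested. Gene expression was profiled cell by cell on the 10x Genomics platform in 2 libraries of MOLT4, an established line from a T-cell acute lymphoblastic leukemia. The control library was untreated, and the other came from cells given SP11, which the study describes as an inhibitor of the chaperone HSP90, at 0.8 µM for 48 h. Both groups were grown in the same serum-supplemented RPMI medium. Each group is 1 library of 1 cell line, so no value has a replicate check and every comparison is between these libraries. All intervals are 95% intervals that cover counting error only.

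Chemokines are small secreted proteins that bind receptors on leukocytes and draw those cells along a gradient. The CC members draw mainly monocytes and lymphocytes, CXCL2 and CXCL8 act on neutrophils, and CXCL10 and CXCL16 act on activated T cells. IL1B and TNF are inflammatory cytokines that induce chemokine genes in the cells that receive them. In monocytes and macrophages most of these genes are transcribed at a low level until a stimulus activates NF-kB and related factors, and their messengers are short-lived.

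The libraries differed in depth and did not carry the markers of their label. Each captured RNA molecule carries a UMI, a random tag, so UMIs count molecules. After the study's filters, 1053 control cells with 19375163 UMIs and 852 SP11 cells with 9498802 UMIs were kept, and the median cell had 17711 UMIs in control and 10489 in SP11. Of 22 T-lineage markers, 9 were at 0 UMIs in both libraries, among them CD3D, CD3G and both TRBC genes. Their summed level was 117 CPM (UMIs of a gene per 1000000 UMIs of the library) in control and 74.0 in SP11, nearly all of it from LCP2, an adaptor that myeloid cells also use. The 20 monocyte or macrophage markers summed to 902 CPM in control and 2265 in SP11, with MRC1 at 0 in both and CD163 at 0 in control. LYZ had 241 and 736 CPM, while CD14, FCGR3A and VCAN had at most 20 UMIs in a library. Of 14 with 50 or more UMIs over both libraries, 8 were at least 1.5-fold higher in SP11. The 2 at least 1.5-fold lower were SPI1 (90.1 and 27.9 CPM) and ITGAX (9.03 and 2.63). Over all genes with that many UMIs, 10.7% were higher and 38.4% lower. The 11 markers of neutrophils and their precursors summed to 2299 and 1009, of which ELANE gave 1110 and 477. MPO of the same list had 3 and 5 UMIs. The remaining marker lists summed to 23.2 and 16.1 for B cells, 217 and 232 for NK cells, 0.310 and 0 for dendritic cells, and 0.361 and 2.63 for erythroid cells and megakaryocytes. NKG7 alone gave 208 and 231 of the NK sums, and PAX5 gave 18.9 and 11.2 of the B-cell sums. The other NK markers had few UMIs except KLRF1, with 152 in control and 9 in SP11. The part of these markers in the results was not tested. Both libraries also shared 114 cell barcodes, of which 111 control and 112 SP11 barcodes were kept, and results that rest on them are given with and without them. The first 9 bases of the barcodes took 192 different sequences in each library. Why barcodes were shared was not tested.

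As a group, the chemokine and cytokine genes were higher in the SP11 library. Their UMIs numbered 1067 in control and 3110 in SP11, which is 55.1 CPM (interval 51.8 to 58.5) and 327 CPM (316 to 339). On the log2 scale the ratio of SP11 to control was 2.57 (2.47 to 2.67). Without the shared barcodes it was 2.76 (2.65 to 2.87). Of the 10 genes, 9 had 50 or more UMIs over both libraries, and CCL4L2 with 48 did not. SP11 was at least 1.5-fold higher for 8 of these 9 genes, and CXCL16 lay between the limits. Over all 12128 genes with that many UMIs, 10.7% reached this size in the same direction and 38.4% in the opposite one. The median log2 ratio was 1.81 over the 9 genes and -0.35 over all 12128. CCL2 made up 26.7% of the summed UMIs in control and 67.3% in SP11, and the summed log2 ratio without it was 1.41.

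**Figure D1:**
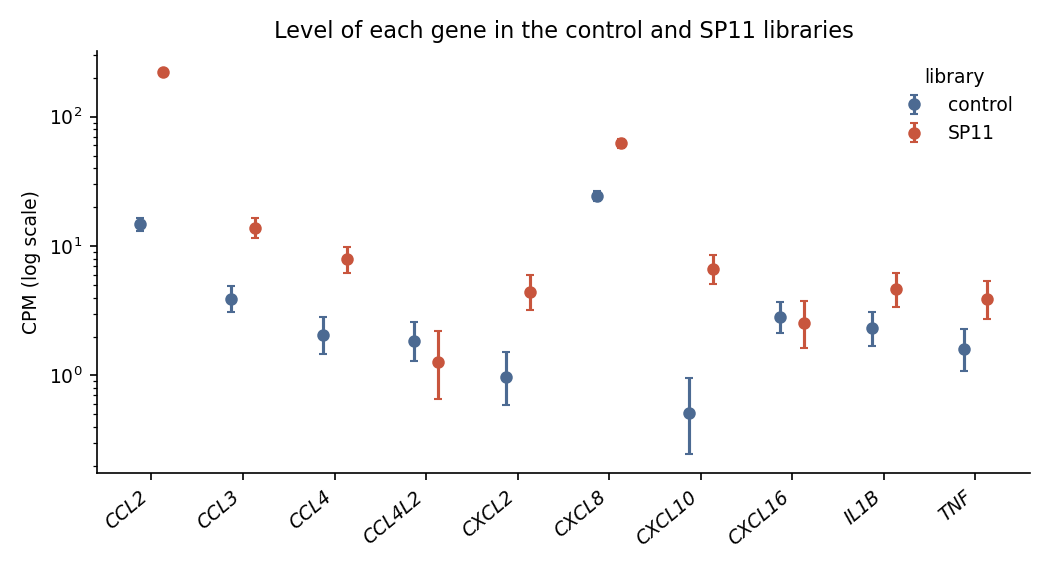
Level of each gene in CPM (log axis) in the control (blue) and SP11 (red) library, with exact Poisson 95% intervals; 1 library per group. CCL2 stood at 14.7 in control and 220 in SP11, while the intervals of CCL4L2 and CXCL16 overlap between the libraries. The comparison shown is between the libraries within each gene.

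CCL2, the main chemokine for monocytes, lies on chromosome 17 of GRCh38 at chr17:34255274-34257208 on the plus strand. It had 285 UMIs in control, or 14.7 CPM (13.1 to 16.5). In SP11 it had 2092 UMIs, or 220 CPM (211 to 230). These levels are 15.0-fold apart, a log2 ratio of 3.90 (3.73 to 4.09), and the intervals of the levels do not meet. The gene was seen in 101 of 1053 control cells (9.59%, exact binomial interval 7.88% to 11.5%) and in 379 of 852 SP11 cells (44.5%, 41.1% to 47.9%). Since deeper cells show a gene more often, each cell was also thinned at random to 4400 UMIs, leaving out 90 control and 83 SP11 cells that had fewer. After this thinning a CCL2 UMI was found in 28 of 963 control cells (2.91%, 1.94% to 4.17%), and in SP11 in 242 of 769 (31.5%, 28.2% to 34.9%). No cell type that should lack these genes was identified in either library, so the share of such UMIs that comes from free RNA was not measured. The cells with CCL2 also differed in how much they held. In control, 67 of the 101 positive cells had 1 UMI and 6 had 10 or more. In SP11, 134 of the 379 had 1 UMI and 55 had 10 or more. After thinning, no control cell and 11 SP11 cells still held 10 or more CCL2 UMIs. Thus more cells were positive in SP11, and the positive cells held more molecules each, 5.52 UMIs on average against 2.82.

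CCL3, CCL4 and CCL4L2 encode macrophage inflammatory proteins and lie near each other on chromosome 17 at chr17:36088256-36090169 (minus strand), chr17:36103827-36105621 (plus) and chr17:36210924-36212878 (plus). CCL4L2 is a near copy of CCL4. In the closest pair of their annotated transcripts, the longest reading frames of 279 bases each agree at 272 bases, or 97.5%. CCL3 has a like copy, which the matrices name CCL3L1 and GENCODE 44 names CCL3L3, with 95.7% identity over the reading frame. The division of reads among these copies is therefore uncertain. The antisense gene CCL3-AS1 overlaps CCL3, and the sources used here do not state whether the counting used strand.

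CCL3 had 76 UMIs in 26 control cells and 131 UMIs in 64 SP11 cells. The levels were 3.92 CPM (3.09 to 4.91) and 13.8 (11.5 to 16.4), a log2 ratio of 1.81 (1.40 to 2.24). A control cell held 45 of the 76 control UMIs, and without the top cell of each library the ratio was 2.99 (2.41 to 3.61). The other control UMIs of CCL3 came from cells with few molecules, 22 of which had 1 UMI. Without the shared barcodes the ratio of CCL3 was 3.13 (2.53 to 3.76). CCL4 had 40 UMIs in 3 control cells and 75 UMIs in 28 SP11 cells, and its log2 ratio was 1.94 (1.36 to 2.53). The same control cell held 38 of the 40. With it left out, 2 control UMIs stand against 66 SP11 UMIs after removal of the SP11 top cell, and the ratio was 6.07 (4.16 to 9.15). The cell's barcode is among those shared by both libraries, and without all shared barcodes 1 control UMI and 70 SP11 UMIs of CCL4 were left, a ratio of 7.19 (4.67 to 12.5). Nearly all CCL4 of the control library was thus in 1 cell. CCL4L2 is the 1 gene whose direction turned with this cell. It had 36 UMIs in 8 control cells and 12 UMIs in 10 SP11 cells, a log2 ratio of -0.56 (-1.63 to 0.42). The control cell held 29 of the 36, and without the top cells 7 and 9 UMIs gave 1.39 (-0.20 to 3.05). Both intervals include 0, and they cover counting error only, not the unequal spread of these UMIs over cells. Without all shared barcodes 6 and 10 UMIs were left and the ratio was 1.80 (0.20 to 3.54), so its value depends on which cells are counted. At equal depth, CCL3 was seen in 10 control and 33 SP11 cells, CCL4 in 1 and 17, and CCL4L2 in 1 and 5.

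CXCL8, CXCL2 and CXCL10 lie on the long arm of chromosome 4, at chr4:73740519-73743716 (plus strand), chr4:74097040-74099196 (minus) and chr4:76021118-76023497 (minus). CXCL8 is interleukin 8, CXCL2 is a related neutrophil chemokine, and CXCL10 is a chemokine induced by interferon. In the annotation the gene ART3 overlaps CXCL10. Their promoters are shown because these are the CXC members that were higher in SP11 and for which RefSeq gives a start site in the table used. The 250 bases before the start site come from RefSeq on GRCh38.p14, at chr4:73740319-73740568 on the plus strand for CXCL8, chr4:74099196-74099445 on the minus strand for CXCL2 and chr4:76023498-76023747 on the minus strand for CXCL10, each printed 5′ to 3′. Capitals mark every match on either strand to GGNNNTTCC (a pattern within NF-kB sites), in CXCL8 also TGANTCA (the AP-1 pattern) and in CXCL2 and CXCL10 also GAAANNGAA (a pattern of interferon response elements).
CXCL8: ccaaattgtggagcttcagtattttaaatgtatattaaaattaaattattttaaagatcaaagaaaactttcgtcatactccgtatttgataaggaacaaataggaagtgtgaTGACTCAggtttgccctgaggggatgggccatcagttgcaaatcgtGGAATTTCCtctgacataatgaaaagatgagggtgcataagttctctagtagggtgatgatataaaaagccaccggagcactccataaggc
CXCL2: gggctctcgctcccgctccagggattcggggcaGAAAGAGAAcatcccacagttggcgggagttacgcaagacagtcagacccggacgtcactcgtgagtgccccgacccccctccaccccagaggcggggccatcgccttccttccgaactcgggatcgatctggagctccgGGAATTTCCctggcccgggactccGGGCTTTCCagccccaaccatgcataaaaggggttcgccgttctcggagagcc
CXCL10: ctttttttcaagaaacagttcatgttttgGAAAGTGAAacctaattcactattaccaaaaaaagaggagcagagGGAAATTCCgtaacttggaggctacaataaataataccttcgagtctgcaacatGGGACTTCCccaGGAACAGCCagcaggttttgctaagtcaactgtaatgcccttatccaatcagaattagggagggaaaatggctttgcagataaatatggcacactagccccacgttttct
Counted back from the start site, the NF-kB-like match of CXCL8 spans bases -91 to -83 and its AP-1 match bases -137 to -131. CXCL2 has NF-kB-like matches at -77 to -69 and -53 to -45, and the interferon pattern at -217 to -209. CXCL10 has 3 such matches between -176 and -102 and the interferon pattern at -221 to -213. Of 35116 RefSeq promoters of this length, 17.1% hold GGNNNTTCC, 6.57% hold TGANTCA and 6.88% hold GAAANNGAA. The table gives promoters for 6 of the 10 genes. Among these, GGNNNTTCC was found in CXCL8, CXCL2 and CXCL10 and not in the windows of CCL3, IL1B and TNF, TGANTCA was found in CXCL8, TTGCNNAA (the C/EBP pattern, in 9.05% of all promoters) was found in CCL3, CXCL2 and IL1B, GAAANNGAA in CCL3, CXCL2 and CXCL10, and TATAAA (10.7%) in CCL3, CXCL8 and TNF. CCL3 has several windows in the table. All of its matches lie in a single window, and its other windows hold none of these patterns. The shares over all promoters count each promoter singly. Letters that match are a description and do not show a bound site.

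CXCL8 had 470 UMIs in 85 control cells and 590 UMIs in 226 SP11 cells. Its levels were 24.3 CPM (22.1 to 26.5) and 62.1 (57.2 to 67.3), a log2 ratio of 1.36 (1.18 to 1.53). A control cell held 203 of the 470 UMIs, and without the top cell of each library the log2 ratio was 2.13 (1.91 to 2.34). Thinned control cells held the transcript in 31 of 963 cases (3.22%, 2.20% to 4.54%) and thinned SP11 cells in 122 of 769 (15.9%, 13.4% to 18.6%). The share of cells was therefore further apart between libraries than the level was. CXCL2 had 19 UMIs in 10 control cells and 42 UMIs in 36 SP11 cells, a log2 ratio of 2.17 (1.36 to 3.04). Its control top cell held 8 UMIs, its SP11 top cell 2, and without both the ratio was 2.89 (1.90 to 4.00). CXCL10 showed the opposite arrangement, with its high cell in SP11. It had 10 UMIs in 6 control cells and 63 UMIs in 24 SP11 cells, a log2 ratio of 3.68 (2.71 to 4.81). An SP11 cell held 38 of the 63, and without the top cells 7 and 25 UMIs gave 2.86 (1.61 to 4.32). At equal depth CXCL10 was seen in 4 of 963 control cells (0.415%, 0.113% to 1.06%) and in 10 of 769 SP11 cells (1.3%, 0.625% to 2.38%), and these intervals overlap.

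CXCL16 differs from the other chemokines in that it is made as a membrane protein, which also serves as a scavenger receptor, and is released by the protease ADAM10. It lies at chr17:4733533-4739928 on the minus strand, where the annotation also places parts of MED11 and ZMYND15. It had 55 UMIs in 52 control cells and 24 UMIs in 23 SP11 cells. The levels of 2.84 CPM (2.14 to 3.69) and 2.53 (1.62 to 3.76) overlap, with a log2 ratio of -0.17 (-0.92 to 0.55), or 0.18 with TMM scaling, another way to scale the libraries. No cell of either library held more than 2 UMIs of CXCL16. At equal depth it was seen in 8 of 963 control cells and 7 of 769 SP11 cells. It was the 1 gene of the 9 that did not reach a 1.5-fold difference.

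IL1B, which encodes interleukin 1 beta, lies at chr2:112829751-112836816 on the minus strand, and TNF, which encodes tumor necrosis factor, at chr6:31575565-31578336 on the plus strand. IL1B had 45 UMIs in 18 control cells and 44 in 30 SP11 cells. In CPM the levels were 2.32 (1.69 to 3.11) and 4.63 (3.37 to 6.22), a log2 ratio of 1.00 (0.36 to 1.63). A control cell held 27 of the 45, and without the top cell of each library 18 and 38 UMIs gave 2.11 (1.26 to 3.0). TNF had 31 UMIs in 30 control cells and 37 in 35 SP11 cells, a log2 ratio of 1.28 (0.56 to 2.02). No cell held more than 2 TNF UMIs, and without the top cells the ratio was 1.3 (0.55 to 2.06). At equal depth IL1B was seen in 7 control and 12 SP11 cells, and TNF in 6 and 13, so the binomial intervals of both genes overlap between the libraries. Both cytokines were thus sparse in each library, IL1B concentrated in control and TNF spread over single UMIs in both.

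**Figure D2:**
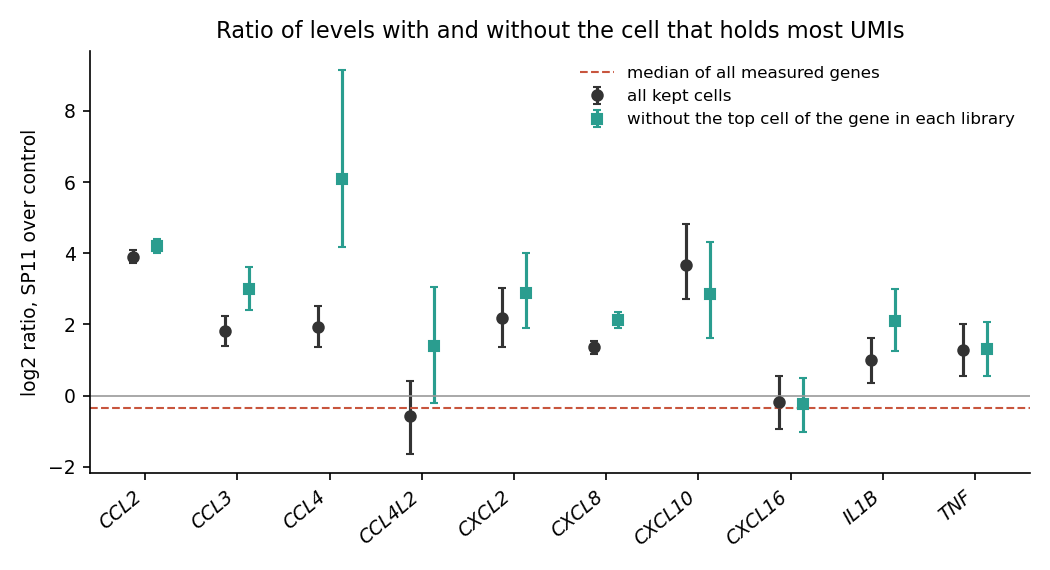
Log2 ratio of the SP11 to the control level for each gene over all kept cells (black circles) and without the cell that holds most UMIs of that gene in each library (green squares), with 95% counting intervals. Dashes mark the median over measured genes of every kind, -0.35; CCL4 moved from 1.94 to 6.07, CCL4L2 from -0.56 to 1.39 and CXCL10 from 3.68 to 2.86.

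The control UMIs of these genes sat in few cells, and the SP11 UMIs were spread over many. Of the 8 genes with 30 or more UMIs in control, 6 had at least 20% of them in a single cell, against 0.191% of 12540 genes with that many UMIs there. In SP11 the count was 1 of 8, CXCL10, against 0.0871% of 10338 genes. Over all such genes the median share of the top cell was 1.06% in control and 1.5% in SP11. In control the top cell held 95.0% of the CCL4 UMIs, 80.6% of CCL4L2, 60.0% of IL1B, 59.2% of CCL3, 43.2% of CXCL8 and 21.1% of CCL2. In SP11 the top cell held 12.0% of CCL4, 13.6% of IL1B, 7.63% of CCL3, 3.22% of CXCL8 and 3.01% of CCL2. For the genes together, 4 control cells held at least 50% of the UMIs, whereas 49 SP11 cells were needed. The control part of this depends on the shared barcodes, since the cell that held most CCL3, CCL4 and CCL4L2 is among them. Without those barcodes 4 genes kept 30 or more control UMIs and 3 of them had at least 20% in a single cell (IL1B 64.3%, CXCL8 48.1% and CCL2 23.0%), against 0.106% of 12314 genes. In SP11 it was 1 of 8, CXCL10 at 63.3%, against 0.0692% of 10115 genes. CCL3 then had 29 control UMIs, 17.2% of them in its top cell, and TNF 28, 7.14% in its top cell.

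**Figure D3:**
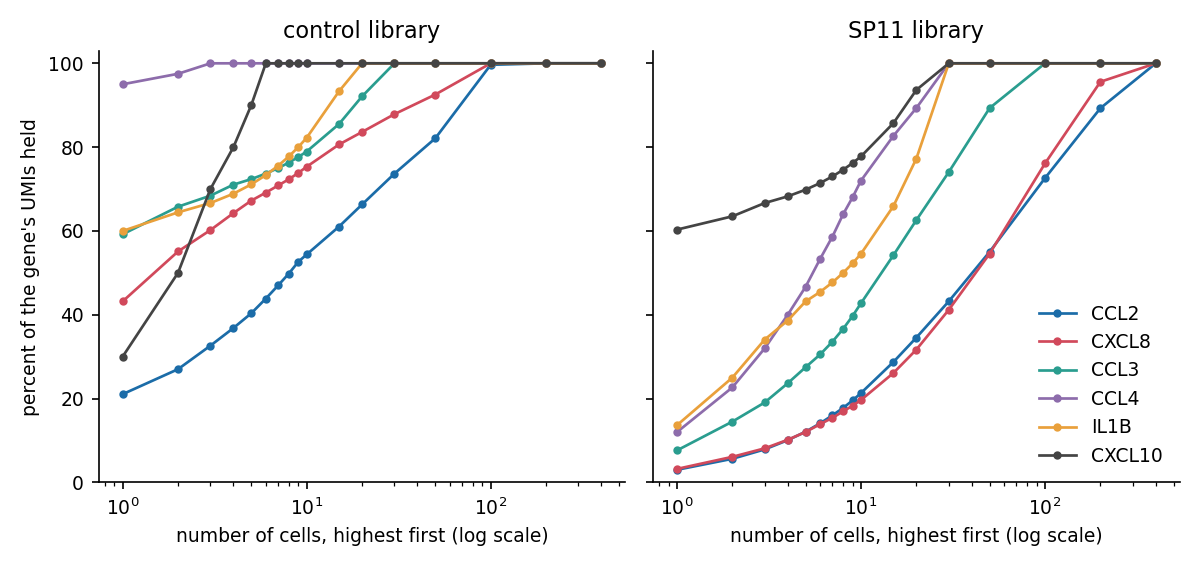
Share of a gene's UMIs (percent) held by the cells with the most of them, against the number of cells taken from the highest down (log axis), for 6 genes in the control library (left) and the SP11 library (right). In control the curves of CCL4, CCL3 and IL1B start at 95.0%, 59.2% and 60.0%, whereas in SP11 CXCL10 alone starts above 20%, at 60.3%.

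The control cells at the top carried different sets of genes. The highest held 221 UMIs of the 10 genes among its 31241 UMIs: 203 of CXCL8, 8 of CXCL2, 5 of CCL3, 4 of CCL2 and 1 of CXCL16. The next held 146, with 60 of CCL2, 56 of CXCL8 and 27 of IL1B but none of CCL4. The last of the 3, whose barcode is shared between libraries, held 145, with 45 of CCL3, 38 of CCL4, 29 of CCL4L2 and 24 of CXCL8. CXCL8 was the gene that all 3 cells held at 24 or more UMIs. Together they held 512 UMIs, 48.0% of the control total. They were deep cells, with 31241, 37119 and 35386 UMIs of all genes against a control median of 17711. Scrublet called none of them a doublet, which does not show that each was a single cell. In SP11 the top 3 cells held 6.91%. The highest had 63 UMIs of CCL2 and 12 of CXCL8, and the next 37 of CCL2 and 38 of CXCL10. Without these 3 cells of each library, the summed log2 ratio was 3.41 (3.28 to 3.55).

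Other genes of the highest cell of each library were read against the rest of that library. In the control cell, the genes furthest above the rest of its library were CXCL8, the collagenase gene MMP1, the ferritin gene FTH1, SERPINB2, the metallothionein gene MT2A, the mitochondrial superoxide dismutase gene SOD2, FABP5, CCNB1, TPM4 and MALAT1. MMP1 had 128 UMIs in this cell and 827 in all other control cells. In the SP11 cell the corresponding genes were MMP1, TDO2, CSTB, S100A8, CCL2, AP1S2, S100A9, IFI30, GLRX and FTH1, with 158 MMP1 UMIs in the cell and 812 in the rest. MMP1 and FTH1 are thus common to both lists of 10.

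Cells with several of the genes were more frequent in SP11. After thinning, at least 1 of the 10 genes was found in 80 of 963 control cells (8.31%, 6.64% to 10.2%), and in SP11 in 323 of 769 (42%, 38.5% to 45.6%). At least 2 were held by 11 control cells (1.14%, 0.572% to 2.03%) and by 102 SP11 cells (13.3%, 10.9% to 15.9%). At least 3 were held by 5 and 33 cells, and the most in a cell was 4 in control and 7 in SP11. Without thinning, 260 control cells (24.7%) and 478 SP11 cells (56.1%) held at least 1 gene, and 60 (5.70%) and 230 (27.0%) at least 2. Without the shared barcodes, the thinned shares with at least 1 gene were 7.90% and 41.7%.

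**Figure D4:**
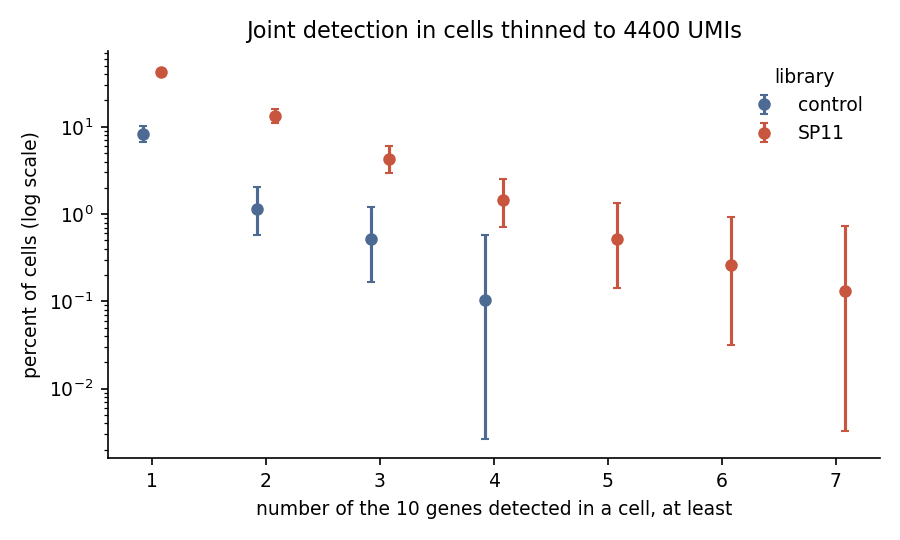
Percent of cells (log axis) in which at least the given number of the 10 genes was detected, after thinning every cell to 4400 UMIs, in the control (blue, 963 cells) and SP11 (red, 769 cells) library with exact binomial 95% intervals. The SP11 points lie above the control points at 1 gene (42% and 8.31%), 2 genes and 3 genes with intervals apart, and the intervals are wide beyond that.

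The 10 genes form 45 pairs. At equal depth 12 pairs were seen together in at least 1 control cell and 32 in at least 1 SP11 cell, and the other 13 pairs were not seen together in SP11. Of the 32, 29 were seen in more cells than the product of their single shares gives, as were all 12 in control. Every control product was below 1 cell, so a control pair seen at all must exceed it, and that count shows nothing further. In SP11 the same holds for each pair whose product is below 1, so the count of 29 is in part fixed in advance. Of the SP11 pairs with a product of 1 or more, some did not exceed it. These were CCL2 and CXCL8, each with CXCL16 and with TNF. Without the shared barcodes 6 pairs were left in control and 32 in SP11, and 29 of the SP11 pairs were above the product. This product takes no account of cells differing in overall RNA, so the comparison is a description. CCL2 and CXCL8 shared the most, 69 SP11 cells where the product gives 38.4, and 7 control cells where it gives 0.901. Of the 242 SP11 cells with CCL2, 28.5% (22.9% to 34.7%) also held CXCL8, against 10.1% (7.62% to 12.9%) of the 527 without. CCL3 was seen in 27 cells together with CCL2 (product 10.4) and in 17 with CXCL8 (product 5.24). Of the 33 cells with CCL3, 27 therefore held CCL2. IL1B was seen in 12 thinned SP11 cells, of which 11 held CCL2 (product 3.78) and 8 held CXCL8 (product 1.90). CCL4 shared 14 of its 17 cells with CCL2 and 6 with CCL3. TNF shared 3 cells with CCL2 where the product gives 4.09, and CXCL16 shared 2 where it gives 2.20.

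Clusters were made in each library from genes other than these 10. They are numbered by size and unnamed. In control, cluster 0 (336 cells, led by TDO2, SPP1, S100A8, RNF157 and SLC7A7) held 48.0% of the chemokine and cytokine UMIs on 33.0% of all UMIs, and cluster 4 (124 cells, led by TMEM71 and PIF1) held 29.9% on 16.6%. These shares rest on the 3 top cells. With those left out, cluster 0 stood at 34.9 CPM (30.5 to 39.9), cluster 4 at 30.7 (24.9 to 37.4) and the other 4 clusters between 22.4 and 31.2. In SP11, cluster 5 was the highest, and it stayed so without the top cells. Its 20 cells, led by ATP6V0D2, SLC26A11, TDO2, MMP1 and S100A12, held 433 UMIs, which is 13.9% on 2.94% of all UMIs, at 1552 CPM (1409 to 1705). Without the 2 top cells that belong to it, the level was 1259 (1119 to 1412). Within it CCL2 stood at 978 CPM, CXCL8 at 315 and CCL3 at 100.3. The lowest was SP11 cluster 1 (187 cells, led by PIF1, DYRK1B, UBE2C, TOP2A and MID1), at 117 (105 to 130). That is above the level of every control cluster, although its interval meets that of control cluster 4 (88.5 to 111). CXCL10 was found mainly in cluster 3 (102 cells, led by histone genes such as HIST1H2AM), which held 44 of its 63 UMIs, and 38 of these were in 1 cell. Without that cell, cluster 3 held 6 of the remaining 25 UMIs and cluster 0 held 13.

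**Figure D5:**
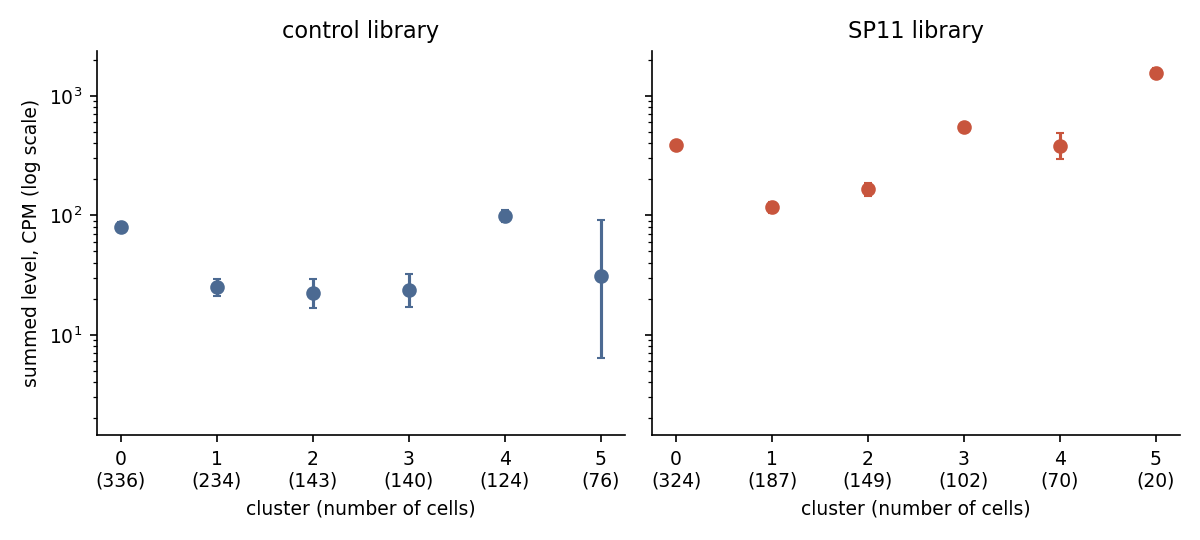
Summed level of the 10 genes in CPM (log axis) in each cluster of the control library (left) and the SP11 library (right), with exact Poisson 95% intervals; cell numbers stand in parentheses. The control clusters lie between 22.4 and 99 and the SP11 clusters between 117 and 1552, cluster 5 of 20 cells being the highest.

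The level was also read in shallow and deeper cells apart, since both libraries held a cluster of shallow barcodes. In cells under 4400 UMIs the 10 genes summed to 60.6 CPM in control (7 UMIs, 24.4 to 125) and 310 in SP11 (57 UMIs, 235 to 401). In deeper cells the levels were 55.0 and 328, inside the intervals of the shallow cells.

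Other genes followed the summed chemokine and cytokine level from cell to cell. Over the 963 control cells with 4400 or more UMIs, Pearson's r was highest for MMP1 (0.58), the calcium-binding protein gene S100A9 (0.49), the NADPH oxidase gene NCF1 (0.46), FTH1 (0.43) and the complement gene C3 (0.42). Over 769 SP11 cells it was highest for FTH1 (0.57), the autophagy receptor gene SQSTM1 (0.44), SOD2 (0.43), the Notch coactivator gene MAML2 (0.43) and the cystine transporter gene SLC7A11 (0.41). FTH1 was among the 5 highest in each library. The cells of a library share its preparation, differ in depth, and in control the 3 top cells weigh on every r, so these are descriptions.

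Few other chemokines were measured. Of 27 further chemokine genes in the matrices, 2 reached 50 UMIs and 13 were at 0 in both libraries. For CCL5, a T-cell and monocyte chemokine, 1564 control and 616 SP11 UMIs gave a log2 ratio of -0.32 (-0.45 to -0.18), and for CCL23, 276 and 201 gave 0.57 (0.30 to 0.84). Neither was 1.5-fold apart over all UMIs, while TMM scaling puts CCL23 at 0.92, past that size. The list counts that follow are to be read against all measured genes, of which 10.7% were at least 1.5-fold higher and 38.4% lower, or 22.2% and 24.5% with TMM scaling. Of 30 other cytokines 13 were measured, 5 at least 1.5-fold higher and 5 lower (6 and 4 with TMM), with a median of -0.46. IL1RN, the natural antagonist of interleukin 1, had 9 UMIs in control and 70 in SP11 (3.99, 2.98 to 5.18), and TNFSF13, which encodes the B-cell factor APRIL, had 34 and 54 (1.70, 1.05 to 2.36). The lowest were IL18 with 703 and 100 UMIs (-1.79, -2.10 to -1.48) and VEGFA with 926 and 137 (-1.73, -2.00 to -1.47). IL6, IL4 and IFNG were at 0 in both libraries, with upper limits of 0.155 CPM for control and 0.316 for SP11, at 3 counts of each total. CSF1 had 2 and 0 UMIs and IL10 had 2 and 5.

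The receptors of these ligands were mostly sparse. Of 16 receptor genes 5 were measured, 1 at least 1.5-fold higher and 1 lower (2 and 0 with TMM), with a median of 0.03. CCR1, a receptor of CCL3, was the highest with 33 UMIs in control and 41 in SP11 (1.34, 0.64 to 2.05), followed by CXCR2, a receptor of CXCL8 and CXCL2, with 117 and 80 (0.48, 0.05 to 0.90). IL1RAP, the shared subunit of the interleukin 1 receptor, was the lowest at 542 and 149 (-0.83, -1.11 to -0.57), and TNFRSF1A had 1094 and 440 (-0.29, -0.45 to -0.12). CXCR1 and CXCR3 were at 0 in both libraries, and CCR2, the receptor of CCL2, had 2 UMIs in control and 0 in SP11.

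Genes for the maturation and release of these proteins gave 13 measured of 17, with 2 higher, 5 lower (4 and 3 with TMM) and a median of -0.23. MMP9, a protease that trims chemokines, had 19 and 99 UMIs (3.41, 2.69 to 4.20), and CASP1, which cleaves pro-interleukin 1 beta, had 83 and 69 (0.76, 0.28 to 1.24). The neutrophil proteases PRTN3 (-1.43, -1.53 to -1.33) and ELANE (-1.22, -1.27 to -1.17) were the lowest. Among regulators of messenger stability, 12 of 14 were measured, with 2 higher, 1 lower (4 and 1 with TMM) and a median of -0.13. ZC3H12A, a nuclease of inflammatory messengers, had 91 and 97 UMIs (1.12, 0.69 to 1.55) and ZFP36L1 had 35 and 30 (0.81, 0.05 to 1.55). ZFP36, which marks the TNF messenger for decay, had 48 and 17 (-0.47, -1.36 to 0.36), and TENT5C had 402 and 56 (-1.82, -2.25 to -1.41). Of 30 genes of Toll-like receptor and NF-kB signalling 25 were measured, with 7 higher, 5 lower (11 and 2 with TMM) and a median of 0.02. The highest were the NF-kB inhibitors NFKBIA, with 234 and 418 UMIs (1.87, 1.63 to 2.10), and TNFAIP3, with 295 and 343 (1.25, 1.02 to 1.48). TAB1 (-1.61, -2.08 to -1.17) and IRAK3 (-0.98, -1.15 to -0.81) were the lowest. TMM scaling, which raises every log2 ratio by the same amount and moves the median over all genes to -0.01, puts CCL5 at 0.03 and TNFRSF1A at 0.06.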

How the data were processed

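The deposited files hold raw UMI counts of genes in barcodes, 1 matrix per library, which the authors made with Cell Ranger (7.1.0 per the file headers) on GRCh38 (hg38). The sources used here do not state whether intronic reads were counted. Barcodes with at least 200 genes and at most 20% mitochondrial UMIs were kept, as the study's methods state, which left 1053 of 1076 control and 852 of 864 SP11 barcodes with a total of 19375163 and 9498802 UMIs; the study states other numbers of kept cells. Scrublet (scanpy 1.11.5) called 45 control and 21 SP11 barcodes as doublets, which stayed in the main values. UMIs were summed over kept cells and scaled to CPM by the library's kept UMIs. Levels carry exact Poisson intervals, shares exact binomial (Clopper-Pearson) intervals, and log2 ratios the exact interval of the split of UMIs. The limit for a count of 0 is 3 UMIs. With 1 library per group no test was made, and no threshold is a call: a gene was measured with 50 or more UMIs, and 1.5-fold is a size.

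Clusters were made with Seurat 5.3.0 in each library without the 10 genes (2000 variable features, 10 principal components, resolution 0.5), and their leading genes have the highest ratio of level to the rest among genes with 20 or more UMIs. Positions are from GENCODE 44, and promoters from RefSeq (GRCh38.p14). The genes, the lists and the naming rule were chosen with earlier results of these data known. From each list other than the markers the rule names up to 2 genes with the highest and 2 with the lowest ratio, and IL6, IL10, CSF1, IL4 and IFNG; from each library, the 10 leading genes of the top cell and the 5 genes that follow the summed level most; of described clusters, up to 5 leading genes. CCR2, CXCR1, CXCR3 and the single marker genes were named after their values were seen. The interval code was tested on simulated data before use. Alternatives were scaling with TMM (edgeR 4.0.16) or DESeq2 1.42.0 size factors on the counts, other filters, cell weights and thinning depths, and cells left out. The mouse experiment was not analysed here, and some genes of the lists are not reported here.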

Additional observations from a re-analysis of the deposited data

How the results depend on the processing

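The summed log2 ratio of 2.57 was 2.92 with TMM scaling, 2.94 with DESeq2 size factors, 2.81 with equal weight for every cell, 2.26 with a mitochondrial maximum of 10%, 2.87 without the cell with the most UMIs of the 10 genes in each library, and 3.21 without the top cell of each gene. Of the alternatives chosen after seeing the data, it was 2.76 without the shared barcodes, 3.41 without the 3 top cells of each library and 1.41 without CCL2. In the other 6 settings tried it stayed within its counting interval. TMM moved the median of all measured genes from -0.35 to -0.01 and DESeq2 size factors to 0.01. The count of genes at least 1.5-fold higher was 7 or 8 in all 15 settings tried, and no summed ratio changed direction. It was 7 without the top cell of each gene and without the 3 top cells of each library. There CXCL10 fell under the minimum of 50 UMIs, while its log2 ratio was 2.86 and 2.35. Over all measured genes the share of this size was 10.7%, or 22.2% with TMM. CXCL16, without a 1.5-fold difference in either direction, was at 0.18 with TMM and 0.20 with DESeq2 size factors, and CCL4L2 at -0.21 and -0.19. The cause of these movements was not tested.

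The thinned share of cells with at least 1 of the genes was 4.19% in control and 29.6% in SP11 at 2000 UMIs, 14.1% and 55.0% at 8000 UMIs, and 24.7% and 56.1% without thinning. Without CCL2 it was 6.13% and 22.8%. For at least 2 genes the SP11 share was 7.39% at 2000 UMIs, 23.9% at 8000 UMIs, 27.0% without thinning and 5.20% without CCL2, and the control share was 5.70% without thinning. The control share of the top cell was 25.5% without the shared barcodes and 20.7% over all kept cells. Without the shared barcodes, an alternative chosen after seeing the data, the count of genes with at least 20% of their UMIs in a single cell went from 6 to 3 in control, and the pairs seen together went from 12 to 6; in SP11 both stayed at 1 and 32. No paired analysis was possible because each group has 1 library. Depth limits CCL4, CCL4L2, CXCL2, CXCL10, CXCL16, IL1B and TNF, each with fewer than 50 UMIs in at least 1 library, and 1 library per group leaves the spread between cultures unknown.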
